A study of Mus musculus with 4 samples.

Results

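Cytokine receptor and JAK-STAT genes were examined for binding of E2A in thymocytes of mice that lack the E2A antagonists Id2 and Id3. The 42 members were listed by name and comprise 28 receptor subunits, 4 JAK kinases, 6 STAT factors and 4 SOCS-family inhibitors, out of 22350 protein-coding genes of the mm9 annotation. A member was counted as bound when the midpoint of a ChIP-Seq peak lay in its gene body, in the 30 kb upstream of it or in the 5 kb downstream of it. The binding data were 1 E2A library each from double-positive (DP) thymocytes, sorted as CD1dTet- CD4+ CD8+, and from invariant natural killer T (iNKT) cells, sorted as CD1dTet+ TCRβ+. Both populations came from the thymus of L-DKO mice aged 3 to 5 weeks, with cells of several mice pooled, on a C57BL/6 or C57BL/6 hybrid background. In these mice floxed Id2 and Id3 are deleted by an Lck-driven Cre that is active in early T cell precursors, so both libraries carry the deletion and wild-type cells are not analysed here. Each E2A library had an input library from the same cell type, without precipitation.

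The measurement was a list of peaks per cell type, with a position and a MACS score for each peak. MACS derives the score from the p-value of a peak, as minus log10 of p multiplied by 10, and neither list had a score under 50. There were 17532 DP peaks with a median score of 141 and 1516 iNKT peaks with a median score of 79.6. The lists hold no read counts, so the depth of the libraries is unknown, and a score grows with depth. Scores were therefore ranked within a list and not compared as amounts between lists. A gene without a peak had no region called at this unknown depth, which does not show that E2A was absent. Each cell type was measured in 1 E2A library, so replicate error is unknown and the cell types could not be tested against each other. The intervals given for shares are 95% Wilson intervals and cover counting error only.

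Many of the listed cytokine receptors have no kinase of their own and pair with JAK kinases, which phosphorylate STAT factors when a cytokine binds, and the STAT factors then enter the nucleus and activate target genes, among them the SOCS genes whose products shut the signal down. IL-7 supports early thymocytes, DP cells express little IL-7 receptor, and IL-15 acting through the IL-2 receptor beta chain supports maturing iNKT cells. Not all listed receptors use this route. TGF-beta receptors are kinases themselves and signal through SMAD factors, receptors of the IL-1 and IL-18 family signal through the adaptor MyD88, and IL-17 receptors signal through the adaptor Act1. E2A binds DNA at E-boxes, and CAGGTG is its favored core.

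E2A peaks in DP cells lay at most of the listed genes, from receptors to inhibitors. The list was chosen with earlier results of these data known, so its share describes these genes and not the pathway. In DP cells 36 of the 42 members had a peak, or 85.7% (72.2 to 93.3), whereas 39.2% of all protein-coding genes had one by the same rule. A longer gene has a wider window, so the share was also computed over genes of like length, meaning all protein-coding genes within a factor of 1.5 of each member's length. Over such genes the share was 44.7%, which corresponds to 18.8 of 42 genes. The members exceeded the background in every length class. All 3 members under 5 kb had a DP peak, against 24.3% of all genes of that class. From 5 to 20 kb, 11 of 12 members and 39.5% of genes had a DP peak. From 20 to 50 kb the numbers were 12 of 16 members and 46.0% of genes, and at 50 kb or more they were 10 of 11 members and 50.1% of genes. No member under 20 kb had an iNKT peak, beside 2.43% of genes under 5 kb and 3.78% of those from 5 to 20 kb. From 20 to 50 kb and at 50 kb or more, the iNKT list had 2 of 16 members, beside 6.01% of genes, and 3 of 11 members, beside 12.2% of genes. The background includes genes that thymocytes do not express, since expression is not analysed here. Leaving out olfactory, vomeronasal and predicted genes raised the like-length share to 47.1%. Of the related genes outside the list, 13 of 32 receptors had a DP peak, beside 45.4% of genes of like length. For regulators outside the list it was 10 of 12, beside 45.8%.

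**Figure D1:**
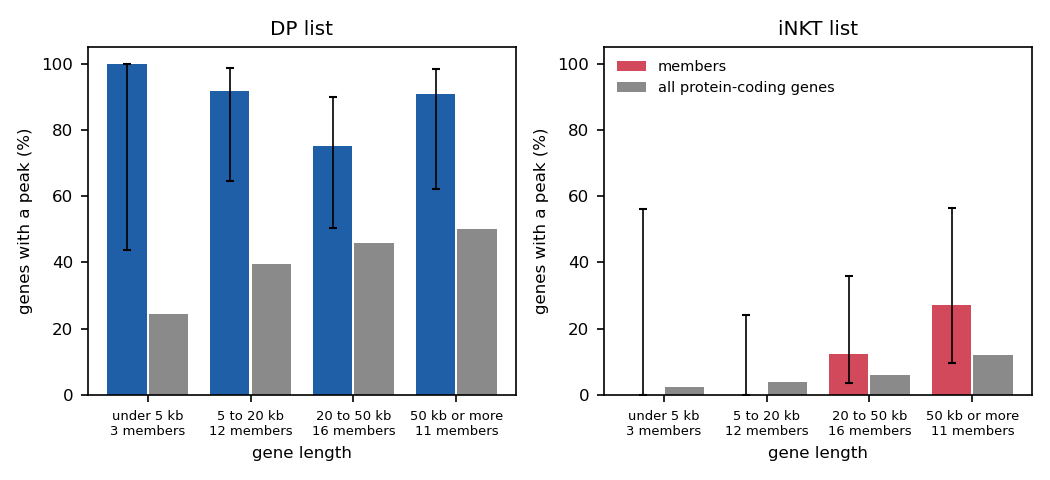
Share of genes with an E2A peak (%, vertical axis) by class of gene length, for the members (blue in the DP panel, red in the iNKT panel) and for all protein-coding genes (gray). Error bars are 95% Wilson intervals for the members; in the DP panel every class of members lies above the gray bar, whereas in the iNKT panel every interval reaches the gray bar.

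The iNKT list reached few of these genes. A peak was found at 5 members, namely Il6ra, Tgfbr2, Jak1, Stat5a and Stat5b, which is 11.9% (5.19 to 25). Of all protein-coding genes 5.73% had an iNKT peak, and of genes of like length 6.31%, which lies inside the interval of the members. All 5 of these members also had a DP peak, and each of the 5 held an iNKT peak that shared 1 bp or more with a DP peak. The share of all genes with peaks in both lists was 4.87%, and 4.28% had an iNKT peak that overlapped a DP peak. Among all genes with a DP peak 12.4% had an iNKT peak, beside 5 of the 36 members with a DP peak. With this window, the iNKT share of all genes and that of genes of like length lie within the counting interval of the members.

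The share of members with a DP peak also exceeded that of all genes with other windows and score limits. With the gene body alone, 22 members had a DP peak and 4 an iNKT peak, beside 20.4% and 3.00% of all genes. With 10 kb upstream and 5 kb downstream, the counts were 33 and 4, beside 31.6% and 4.26%. When each peak was given to the gene with the nearest start site, they were 32 and 4, beside 26.7% and 3.70%. At these settings Stat5a lost its iNKT peak to Stat5b. Among peaks with a score of 100 or more, 30 members had a DP peak and 3 an iNKT peak, beside 28.3% and 2.37%. At a score of 200 or more, 29 had a DP peak, beside 19.9%, and Tgfbr2 alone had an iNKT peak, beside 0.864%. The lists differ in length, so the DP list was also limited to its 1516 highest peaks. In that list 10 members had a DP peak, beside 5.90% of all genes. The interval of the members' DP share lay above the share of all genes in each of these settings. For iNKT peaks this depended on the setting. The interval began just above the share of all genes with the gene body alone (3.77 to 22.1), with the nearest start site (3.77 to 22.1) and at a score of 100 or more (2.46 to 19), and it included that share with 10 kb upstream (3.77 to 22.1) and at a score of 200 or more (0.422 to 12.3). These rest on 1 to 4 members, and the shares of all genes in these settings were not matched for gene length.

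Counted once each, 137 DP peaks lay at the members. Because neighboring members share a window, 10 of them were counted at 2 members. These were 3 peaks between Il4ra and Il21r, 5 at Stat5a and Stat5b, and 2 at Stat3 and Stat5a. The number of DP peaks per member ranged from 0 to 10, with a mean of 3.50, and genes of like length had a mean of 1.03. At 13 members there were 5 or more DP peaks, which was the case for 4.38% of all protein-coding genes. The median score of the 137 peaks was 183, with quartiles of 80.7 and 304, and the median over all DP peaks in any gene window was 139. The members with the most peaks were Il21r with 10, and Il2ra, Ifngr1, Tgfbr2 and Stat5b with 8 each.

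**Figure D2:**
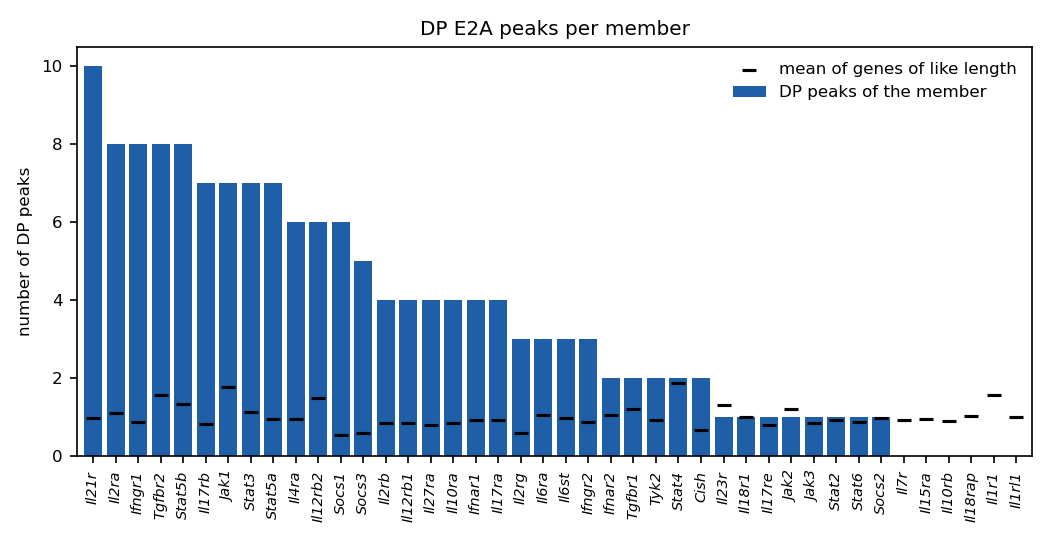
Number of DP E2A peaks at each of the 42 members (blue bars), in decreasing order, with the mean number at genes of like length (black dashes). Il21r stands highest with 10 peaks, and the 6 members at the right end have none.

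A peak among the highest-scoring 10% of the DP list was found at 11 members, against 6.55% of all protein-coding genes and 7.46% of those of like length. These members were Il2ra, Il4ra, Il21r, Il6ra, Il27ra, Ifngr1, Ifnar1, Tgfbr2, Jak1, Stat3 and Socs1. They include receptors of several families together with a kinase, a STAT factor and an inhibitor. At the other end, the best DP peak scored under 100 at 6 bound members, Il17re, Jak2, Jak3, Stat6, Socs2 and Cish. Of the 36 bound members, 17 had their best DP peak upstream, 10 in an intron, 6 downstream and 3 within 1 kb of the transcription start site. Over all 147 pairs of a DP peak and a member, 9.52% were within 1 kb of the start site, 43.5% upstream and 34.7% in introns, near the 12.7%, 38.3% and 37.5% over all protein-coding genes. A DP peak within 1 kb of the start site was present at 14 members, against 11.6% of all genes. The scores of these 14 peaks ranged from 53.6 to 548, with 9 of them under 100. The places and scores of best peaks, and the scores of promoter peaks, were not compared with those at other bound genes.

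**Figure D3:**
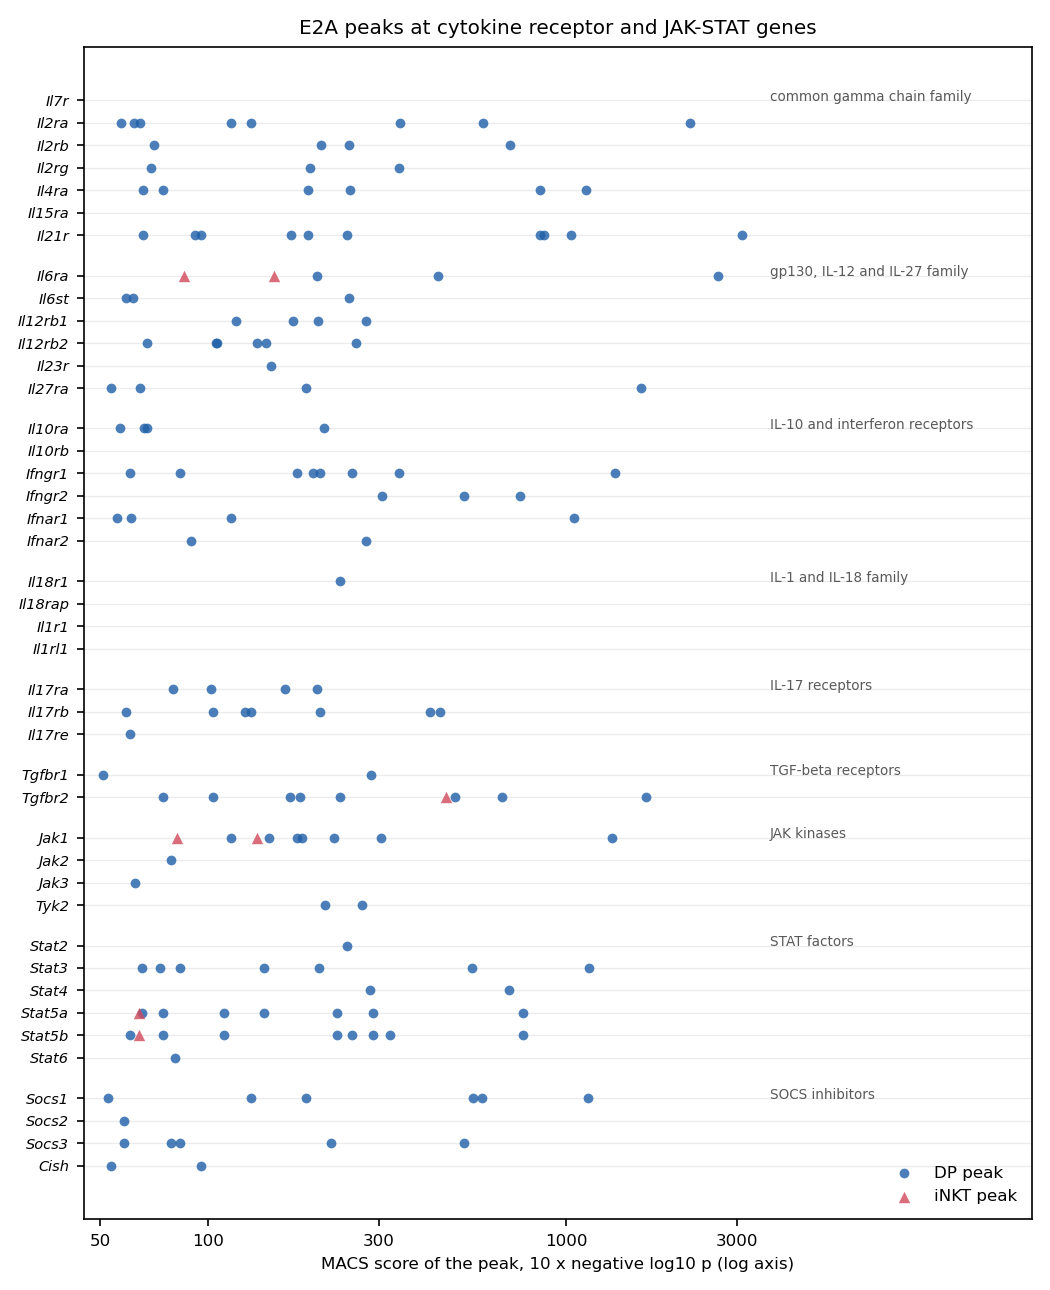
MACS score of every E2A peak (horizontal log axis) at each member (vertical axis, grouped by role), with DP peaks as blue circles and iNKT peaks as red triangles. Most members carry several DP peaks, iNKT peaks stand at 5 members only, and the rows of Il7r, Il15ra, Il10rb, Il18rap, Il1r1 and Il1rl1 are empty.

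Among the listed receptors that use the common gamma chain, DP peaks lay at chains of the IL-2, IL-4 and IL-21 receptors. None lay in the windows of Il7r and Il15ra. Of genes of like length, 33.7 to 47.8% had a DP peak. Il9r, counted among the further receptors, had 1 DP peak with a score of 160. Il21r, the receptor chain for IL-21, lies on chr7:132746943-132777084 and had the highest DP peak of all members. This peak, chr7:132778205-132783168, had a score of 3100, a value that 258 DP peaks share, and its midpoint lay 33.7 kb past the start site, just beyond the end of the gene. Peaks in the introns of Il21r scored 1031, 869 and 244. Il4ra, upstream of it on the same strand, encodes the chain that IL-4 and IL-13 receptors share. It had an intronic DP peak, chr7:132698030-132701150, with a score of 1134, which ranked 1425, and a promoter peak with a score of 74.7. Between both genes, 3 peaks with scores of 65.9, 190 and 845 fall in the windows of both, and 3 closer to Il21r, with scores of 171, 92.0 and 95.4, fall in its window alone.

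Il2ra encodes CD25, the alpha chain of the high-affinity IL-2 receptor and a marker of the thymocyte stages before DP. It had 8 DP peaks, and the highest, 6.33 kb upstream of the start site on chr2:11556470-11559712, scored 2224, rank 551 in the list. An intronic peak scored 587, and the promoter peak scored 64.7, close to the lowest score of the list. Il2rb, the beta chain used by IL-2 and IL-15, had 4 DP peaks with scores of 70.6 to 697. Il2rg, the common gamma chain itself, had 3 with scores of 69.2 to 341. The highest of each was nearer to the start site of another gene, Tmprss6 and Gm614. The nearest iNKT peak was 580 kb from the Il2ra start site, 232 kb from that of Il2rb and 851 kb from that of Il2rg. None of these genes had an iNKT peak within 100 kb, and of all protein-coding genes only 16.9% had one. For the highest DP peaks of Il21r and Il2ra, the sequence shown surrounds the CAGGTG, on either strand and away from exons, nearest the peak midpoint. Neither peak held CAGGTG or CAGCTG in the 200 bp at its midpoint. Capitals mark CAGGTG on either strand and the E-box CAGCTG. For Il2rb the window is the 200 bp at the midpoint of the intronic peak chr15:78316653-78317711, which scored 248. All windows are on the plus strand of mm9, 5′ to 3′.
Il21r, chr7:132781053-132781152: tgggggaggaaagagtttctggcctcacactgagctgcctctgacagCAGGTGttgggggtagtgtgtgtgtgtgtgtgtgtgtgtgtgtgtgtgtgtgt
Il2ra, chr2:11557883-11557982: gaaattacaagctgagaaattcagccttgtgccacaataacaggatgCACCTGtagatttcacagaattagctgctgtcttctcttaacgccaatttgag
Il2rb, chr15:78317082-78317281: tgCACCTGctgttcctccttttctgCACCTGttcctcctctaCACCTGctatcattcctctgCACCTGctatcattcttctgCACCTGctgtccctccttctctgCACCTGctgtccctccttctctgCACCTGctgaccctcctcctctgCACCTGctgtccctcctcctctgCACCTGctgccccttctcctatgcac
The Il2rb window held 9 copies of the E-box, read as CACCTG on this strand, in a tandem array, and no other DP peak at the members had as many as 5 copies in the 200 bp at its midpoint. Of the words of 31 bases in this peak, 98.8% occurred once in the assembly.

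Il7r, the alpha chain of the IL-7 receptor, on chr15:9435916-9459631, had no peak in either list under the window rule. The DP peak nearest to its start site, 42.3 kb upstream, scored 68.5. Downstream, 57.4 kb from the start site, an iNKT peak on chr15:9401785-9402696 with a score of 71.2 overlapped a DP peak with a score of 205. This pair was closer to the start site of Capsl than to that of Il7r. Il15ra, the alpha chain that presents IL-15, was also without a peak, although it follows Il2ra on the same chromosome. The DP peak nearest to its start site, 41.1 kb upstream, was an intronic peak of Il2ra with a score of 62.2.

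The 6 listed receptors of the gp130, IL-12 and IL-27 families had DP peaks, beside 40.4 to 52.0% of genes of like length. Related receptors counted among the further genes, Il11ra1, Il31ra, Lifr, Osmr and Cntfr, had none. Il6ra, the ligand-binding chain for IL-6, on chr3:89673246-89717084, had the highest DP score of this family inside the windows and was bound in both cell types. Its highest DP peak, chr3:89674346-89677165, lay close to the end of the gene and scored 2658, a rank of 402. A pair of adjoining iNKT peaks overlapped it. The first, chr3:89674164-89675917, scored 153, with a rank of 304 of 1516 and its midpoint in the 3′ UTR, and the second, chr3:89675931-89677007, lay in an intron with a score of 85.5 and a rank of 697. The start site nearest to the DP peak, 40.5 kb away, was that of She, and that of Il6ra was 41.3 kb away. The sequence within the second iNKT peak is shown because it is intronic, lies under peaks of both lists and has a CACCTG and a CAGCTG one base apart.
Il6ra, chr3:89676361-89676460: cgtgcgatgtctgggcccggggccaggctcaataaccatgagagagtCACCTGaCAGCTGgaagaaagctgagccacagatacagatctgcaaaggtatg
Il6st encodes gp130, the signaling chain that IL-6 shares with related cytokines. It had 3 DP peaks of 58.9 to 248 in its window, and a far stronger peak outside it. At 50.1 kb upstream, with no start site of another protein-coding gene closer, the DP list had a peak with a score of 3139 and the iNKT list a peak on chr13:113214391-113215861 with a score of 167, which ranked 270. Il27ra, the IL-27 receptor chain, had a DP peak, chr8:86587226-86589177, with a score of 1615, which ranked 884. This peak lay at -21.7 kb from the start site of Il27ra, but 0.835 kb from the start site of the predicted gene Gm10643. Il12rb1 and Il12rb2, the chains of the receptor for IL-12, a cytokine that drives interferon gamma production, had 4 and 6 DP peaks and no score above 276. Il23r, which pairs with Il12rb1 to bind IL-23, had 1 DP peak with a score of 150. It lay past the end of the gene and was closer to the start site of Il12rb2.

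Both chains of the interferon gamma receptor and both chains of the type I interferon receptor had DP peaks. Of genes of like length, 42.7 to 46.8% had one. Ifngr1, the ligand-binding chain for interferon gamma, on chr10:19311755-19330035, had 8 peaks, and of genes of like length 0.456% had as many. The highest, chr10:19285089-19286478, had a score of 1374, ranked 1116 and lay 26 kb upstream, next to peaks with scores of 177 and 342. Ifngr2, the signaling chain, had 3 peaks upstream of its start site, with scores of 306, 518 and 744. For type I interferons, the highest DP peak at Ifnar1, chr16:91458006-91461775, scored 1055 and that at Ifnar2 scored 276. Il10ra, the ligand-binding chain for IL-10, had 4 peaks of 56.9 to 211, and Il10rb, the second chain, had none, although it overlaps the end of Ifnar2 and lies next to Ifnar1 on chromosome 16. The DP peak nearest to its start site, at 30.8 kb, was in an intron of Ifnar2, and past its end lay a DP peak on chr16:91443285-91444396 with a score of 342. No iNKT peak was found at any of these 6 genes, and of genes of like length only 4.01 to 7.23% had one. The iNKT peak nearest to any of their start sites was 146 kb away, from Ifngr2.

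Il1r1, Il1rl1, Il18r1 and Il18rap lie between 40281925 and 40608550 on chromosome 1, and only Il18r1, the ligand-binding chain for IL-18, had a DP peak. This single peak was intronic and had a score of 233. For each of these genes, 46.0 to 52.7% of genes of like length had a DP peak, so 1 of 4 is not far from the background. Il18rap, its accessory chain, Il1rl1, the receptor for IL-33, and Il1r1, the receptor for IL-1, had no peak in either list. These are 3 of the 6 members without any peak. The 3 listed IL-17 receptors had DP peaks, beside 40.4 to 43.6% of genes of like length. Among the further receptors, Il17rc had 3 DP peaks, the best with a score of 109, and Il17rd had none. Il17rb, the chain for IL-25, had 7, with the highest scores of 416 in an intron and 444 near the start site, but 6 of the 7 were closer to the start site of the neighboring Chdh than to its own. Il17ra, the shared chain, had 4 peaks of 80.0 to 202, and Il17re had 1 promoter peak with a score of 60.6.

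Tgfbr2, the chain that binds TGF-beta first, had the highest iNKT peak of all members. The gene lies on the minus strand, chr9:115993415-116084383. The iNKT peak, chr9:116047475-116049117, scored 462, a rank of 58 of 1516, and overlapped a DP peak, chr9:116047369-116048802, that scored 1677, a rank of 833. Both lay in an intron, about 36.1 kb from the start site for the iNKT peak and 36.3 kb for the DP peak. DP cells had 7 further peaks at Tgfbr2, with scores of 74.8 to 662, and no iNKT peak was called at any of them. Tgfbr1, the chain recruited by Tgfbr2, had 2 DP peaks with scores of 285 and 50.8. An iNKT peak 42.9 kb upstream of Tgfbr1, outside the window, had a score of 100 and overlapped a DP peak with a score of 780. The window around the CAGGTG nearest the midpoint of the iNKT peak of Tgfbr2, away from exons, is shown. This iNKT peak has the highest score of the 6 at the members. The 200 bp at its midpoint held neither CAGGTG nor CAGCTG.
Tgfbr2, chr9:116048023-116048122: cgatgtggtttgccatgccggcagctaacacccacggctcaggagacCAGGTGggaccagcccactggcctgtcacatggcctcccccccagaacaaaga

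All 4 JAK kinases had DP peaks, beside 41.4 to 52.9% of genes of like length, but the peaks were strong only at Jak1, which serves most of the receptors described. Jak1 lies on the minus strand, chr4:100824972-100937887, and all its 7 DP peaks were intronic, between 48.1 and 97.3 kb from the start site. The highest, chr4:100859149-100860878, had a score of 1345 and ranked 1147. The iNKT list had 2 peaks in introns of Jak1. The first, chr4:100864816-100865969, had a score of 82.2 and overlapped a DP peak with a score of 116. The second, chr4:100907398-100908371, 30.0 kb from the start site, had a higher score of 137 and a rank of 350, and overlapped no DP peak. It was the only iNKT peak at the members without a DP peak, and it held neither CAGGTG nor CAGCTG in its 974 bp. Of its words of 31 bases 87.6% occurred once in the assembly, the lowest share among the 6 iNKT peaks at the members. The sequence of the shared site and that of the midpoint of the second peak, which has no capitals, are shown for comparison.
Jak1, shared, chr4:100865331-100865430: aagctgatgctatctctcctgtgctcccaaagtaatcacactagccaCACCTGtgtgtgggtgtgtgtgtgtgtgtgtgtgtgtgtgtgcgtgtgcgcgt
Jak1, iNKT list only, chr4:100907834-100907933: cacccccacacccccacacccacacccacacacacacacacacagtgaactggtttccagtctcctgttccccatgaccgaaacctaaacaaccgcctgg
Jak2 and Jak3 had 1 DP peak each, with scores of 78.8 and 62.7, and Tyk2 had 2, with scores of 212 and 269. Jak3 is the kinase that binds the common gamma chain, and its peak was at the promoter.

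**Figure D4:**
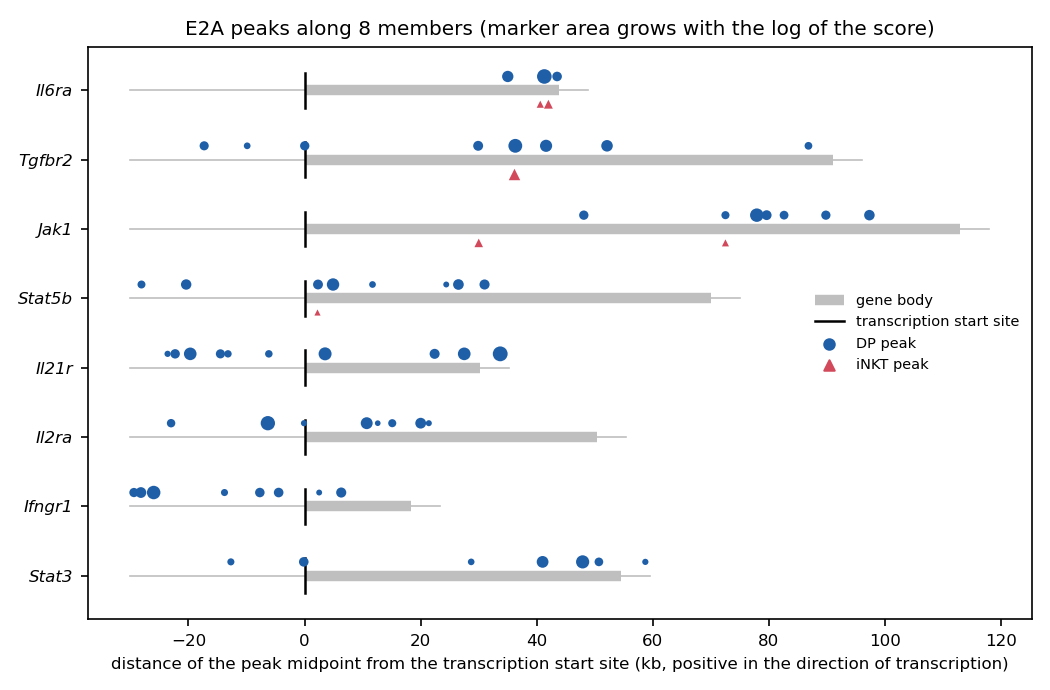
Midpoints of E2A peaks along 8 members, as the distance from the transcription start site in kb (positive in the direction of transcription), with DP peaks above each gene (blue circles) and iNKT peaks below it (red triangles). Gray bars are gene bodies, thin lines the window searched, and marker size grows with the log of the score; iNKT peaks at Il6ra, Tgfbr2, Jak1 and Stat5b sit under DP peaks except for the Jak1 peak at 30.0 kb.

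Every listed STAT gene had a DP peak, beside 42.6 to 53.6% of genes of like length, with the densest binding along the Stat5b, Stat5a and Stat3 cluster on chromosome 11. Counted once each, the 6 STAT genes held 19 DP peaks. Stat5b and Stat5a, the closely related factors downstream of IL-2, IL-7 and IL-15, start close together and are transcribed in opposite directions. Their highest common DP peak, in an intron of Stat5b, had a score of 760 and ranked 2253. A second intronic DP peak, chr11:100708898-100710557, had a score of 229 and was overlapped by the iNKT peak chr11:100709365-100710415 with a score of 64.3 and a rank of 997 of 1516. This iNKT peak lay 2.15 kb from the start site of Stat5b and 10.8 kb upstream of Stat5a, so it accounts for both genes in the count of 5. The window shown from this peak holds a CACCTG and a CAGGTG close to each other.
Stat5b, chr11:100709883-100709982: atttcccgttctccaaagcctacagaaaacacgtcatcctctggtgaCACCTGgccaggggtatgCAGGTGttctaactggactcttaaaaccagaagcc
Stat3, which acts downstream of gp130 and of the IL-21 receptor, had 7 DP peaks, with an intronic peak, chr11:100752285-100753689, of 1159 that ranked 1381 and a promoter peak of 204. The start site nearest to that intronic peak was that of Stat5a, 32.3 kb away. Stat4, the factor downstream of IL-12, had 2 intronic peaks with scores of 284 and 694, in a gene of 120 kb. Stat6, downstream of IL-4, and Stat2, downstream of type I interferons, had 1 upstream peak each, with scores of 80.7 and 244, and both were closer to the start site of another gene. An iNKT peak with a score of 65.7 lay 24.9 kb from the start site of Stat6, past its end and 0.666 kb from the start site of Nab2.

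The 4 listed inhibitors had DP peaks, beside 31.2 to 46.1% of genes of like length, and no midpoint lay in the body of these genes. Of the SOCS genes counted among the further regulators, Socs5 had no DP peak. Socs4 had 1 with a score of 66.0, and Socs7 had 2, the higher with a score of 2290. Socs1, which inhibits JAK kinases and is expressed in DP thymocytes, is 1.73 kb long and had 6 DP peaks. Of genes of like length 0.493% had as many. Its highest peak, chr16:10805339-10807162, at -20.6 kb, had a score of 1149 and a rank of 1395, a promoter peak had a score of 548, the highest of any promoter peak at the members, and a peak just downstream had a score of 582. Of the 6 peaks, 2 had the start site of Socs1 as the nearest. Socs3, which inhibits signaling through gp130, had 5 DP peaks with scores of 58.2 to 519 in its window. The strongest binding near Socs3 lay outside the window, 17.5 kb downstream of the start site, where an iNKT peak on chr11:117813022-117814708 with a score of 442 and a rank of 61 overlapped a DP peak with a score of 3100. Cish, a target gene of STAT5, had 2 DP peaks with scores of 53.7 and 95.9, both nearer to the start site of Mapkapk3. Socs2 had 1 with a score of 58.2. The E-box windows at the distal sites of Socs3 and Il6st are shown as sites bound in both lists beyond the window rule.
Socs3, distal, chr11:117813829-117813928: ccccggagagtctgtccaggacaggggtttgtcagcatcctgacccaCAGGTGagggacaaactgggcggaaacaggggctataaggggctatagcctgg
Il6st, distal, chr13:113214878-113214977: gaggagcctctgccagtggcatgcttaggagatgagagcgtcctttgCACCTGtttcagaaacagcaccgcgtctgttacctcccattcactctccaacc

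When the search was widened to 100 kb on either side, all 42 members had a DP peak, beside 65.1% of all genes, and 13 had an iNKT peak, or 31% (19.1 to 46.0), beside 16.9% of all genes, a share below the interval of the members that was not matched for gene length. The 8 members added in the iNKT list were Il7r, Il4ra, Il6st, Il17ra, Tgfbr1, Stat3, Stat6 and Socs3. At 3 of them, Il6st, Tgfbr1 and Socs3, the member's start site was the nearest to an added peak. The iNKT peak added at Stat3 is the one already counted at Stat5a and Stat5b.

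The overlap of the lists and the E-box shares at the members were within counting error of those of the lists as a whole. Of the 137 DP peaks, 4 were overlapped by an iNKT peak, which is 2.92% (1.14 to 7.27), and the share over all DP peaks was 5.99%. Among the 6 iNKT peaks 5 had a DP peak at the same place, or 83.3% (43.6 to 97), and the share over all iNKT peaks was 69.3%. CAGGTG, searched on both strands in the 200 bp at the midpoint, was present at 39.4% of the 137 DP peaks (31.6 to 47.8), beside 43.9% of all DP peaks. Searched over the whole peak, it was present in 80.3% of the members' DP peaks and 79.0% of all. CAGCTG was present in the 200 bp at 25.5% of the members' peaks and 29.0% of all. The palindrome TTCNNNGAA, to which STAT factors bind, was present at 7.30% (4.01 to 12.9), beside 6.03% of all DP peaks, and the Runx core ACCACA at 29.2% (22.2 to 37.3), beside 23.8%. All of these intervals include the value of the whole list. A match of letters is not evidence of binding by a factor.

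Further cytokine receptor genes and regulators were counted by the same rule. The 32 other receptor genes include some that use JAK kinases, such as those for erythropoietin, growth hormone, prolactin and leptin, and some that do not, such as Csf1r, Tgfbr3 and relatives of the IL-1 and IL-17 receptors. Of the 32 genes, 13 had a DP peak, or 40.6%, beside 45.4% of genes of like length. Of these, Tgfbr3 had 11 DP peaks with scores of up to 1280, and Il20rb had 2, the higher with a score of 1091. The lone iNKT peak was at Il1rap, with a score of 52.2, where no DP peak was found. Of 12 further regulators of the pathway, 10 had a DP peak, beside 45.8% of genes of like length, and 3 had an iNKT peak, beside 5.73% of all protein-coding genes. Socs7 had a DP peak with a score of 2290, which ranked 529, and an iNKT peak with a score of 214. Ptpn1, a phosphatase that acts on JAK kinases, had a DP peak of 464 and an iNKT peak of 62.6, and Stam, an adaptor that binds JAK kinases, had peaks of 447 and 75.5. The phosphatases Ptpn6 and Ptpn11 had 2 DP peaks each and no iNKT peak.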

How the data were processed

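E2A ChIP-Seq peak lists of L-DKO DP and iNKT cells were used, 1 per cell type. Per the submitters' processing notes and the paper's methods, Bowtie 1.1.2 placed reads on mm9, discarding any that fit more than 1 position, and MACS 1.4.2 with default settings found peaks against input, as the lists are named. The deposited score was made by the authors' run of MACS as minus log10 of the p-value, multiplied by 10. It is not scaled for depth, which is unknown. Reads in repeated sequence are lost to the alignment filter.

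Genes came from GENCODE M1 on NCBIM37, the assembly of mm9, and protein-coding genes on chromosomes 1 to 19 and X were used. Peaks were placed at every gene whose window held the midpoint, so a peak can count for several genes. Words of 31 bases were counted over the assembly. The functions were checked on data with known answers, and 6 of 6 checks were exact. Python 3.11.15, numpy 2.4.6 and pysam 0.24.0 were used. All members are named, with the positions of the iNKT peaks and of the DP peaks in the top 10% that lead a member. Members and lists were chosen with earlier results of these data known.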

Additional observations from a re-analysis of the deposited data

How the results depend on the processing

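Alternatives gave 47 values of 10 results, of which 26 stayed within 1.5 times a count or within the counting interval and 21 moved. Windows, minimum scores and shorter lists change these counts by construction. With the gene body alone, 22 members had a DP peak, beside 20.4% of all genes, and 61 DP peaks remained. With 100 kb on either side, 13 members had an iNKT peak, 13 had peaks in both lists, and there were 285 DP peaks, 16 iNKT peaks and 14 DP peaks with an iNKT overlap. At a score of 100 or more, 3 members had an iNKT peak and 3 had both, with 3 iNKT peaks and 2 overlapped DP peaks. At 200 or more, 63 DP peaks were left, and Tgfbr2 was the only member with an iNKT peak (1 member in both lists, 1 iNKT peak, 1 overlapped DP peak), while 29 members kept a DP peak, beside 19.9% of all genes. With the DP list limited to its 1516 highest peaks, 10 members had a DP peak, beside 5.90% of all genes, with 10 DP peaks, 3 members in both lists and 2 overlapped DP peaks. With the whole peak searched, CAGGTG was present in 80.3% of DP peaks, since the window is longer. In each of these settings the share of members with a DP peak exceeded that of all genes. The background without olfactory, vomeronasal and predicted genes was chosen after seeing the data. No paired analysis was possible because each cell type has 1 E2A library and no test was made.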

Other observations

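Among the 12 DP peaks at the members that belong to the top 10% of the DP list, 2 were overlapped by an iNKT peak, or 16.7% (95% Wilson interval 4.70 to 44.8), beside 30.8% of all DP peaks in that band. These were the peaks at Il6ra and Tgfbr2, and the others, among them those at Il21r and Il2ra, had none. From 10 to 50% of the list the count was 1 of 68 peaks, or 1.47% (0.260 to 7.87), beside 5.73%, and in the lower 50% it was 1 of 57, or 1.75% (0.310 to 9.29), beside 1.24%. Each interval includes the share of all DP peaks in its band. The depth of the iNKT library is unknown, and its part in these counts was not tested. Of the 137 DP peaks at the members, 28 had the start site of a gene that is no member as the nearest, so positions alone do not settle which gene they belong to.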
